A study of Mus musculus with 12 samples.

Results

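The clonotypes that use a TRAV13 segment were followed in newly developed thymic regulatory T cells (Treg) of wt, Il2° and Il15° mice. A clonotype is a V segment, a CDR3 amino acid sequence and a J segment of the T-cell receptor alpha chain, and it was taken into the family when its V name began with TRAV13, TRAV13D or TRAV13N and its CDR3 was in frame and without a stop. This gave 874 of the 20615 in-frame clonotypes and 5235 of the 190549 in-frame UMIs of 12 libraries, where a UMI is a random tag that marks 1 Tcra mRNA molecule. All 12 mice were 3 weeks old and C57BL/6, and carried a Rag2-Gfp and a Foxp3-Thy1a reporter. All carried the Kaa TCRβ transgene and 1 null Tcra allele (Tcra+/null). They differed in genotype: wt, Il2null (Il2°) or Il15null (Il15°), with 4 mice in each group. The paper calls the wt mice littermates, and which mice shared a litter is not given. From each mouse 100000 CD4+CD8- thymocytes positive for Thy1.1, which reports Foxp3, and for GFP, which marks recent Rag2 expression, were sorted and gave 1 library. The transgene fixes the beta chain to one derived from a T cell reactive to a myelin antigen, so the values describe alpha chains beside that one beta chain. The tables hold receptor sequences alone, so neither the sort nor the 2 targeted genes could be checked by marker genes.

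The alpha chain is assembled in thymocytes by joining 1 of many V segments to 1 of many J segments, and the joint, trimmed and often filled with untemplated bases, becomes the CDR3 that touches the peptide. Recombination tends to begin with J segments near the V segments, those with high TRAJ numbers, and can be repeated with J segments further away. In C57BL/6 mice a part of the V region is triplicated, and the copies carry D or N in their names, as in TRAV13-1, TRAV13D-1 and TRAV13N-1. Il2 and Il15 encode the cytokines IL-2 and IL-15, which share receptor chains and act on developing Treg.

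The tables named 13 TRAV13 segments, of which 12 were matched by name to GENCODE M21 (build GRCm38, called mm10 by the submitters). They lie on the plus strand of chromosome 14 within 907 kb, from TRAV13D-1 (chr14:52851290-52851866), over TRAV13D-2, TRAV13D-3, TRAV13D-4, TRAV13N-1, TRAV13N-2 (chr14:53253792-53254317), TRAV13N-3, TRAV13N-4, TRAV13-1 (chr14:53545014-53545525), TRAV13-2 and TRAV13-3, which is annotated as a pseudogene, to TRAV13-4/DV7 (chr14:53757356-53757921). TRAV13-5 was not matched. Over the last 250 V bases that end at the CDR3 boundary, TRAV13D-2 and TRAV13N-2 were identical, and TRAV13D-1 differed from TRAV13N-1 by 1 base. TRAV13-1 differed from TRAV13D-1 by 10 bases and from TRAV13N-1 by 11. TRAV13-4/DV7 differed from TRAV13D-4 by 5 bases. The division of UMIs between such names rests on few bases and is uncertain.

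The germline bases that the V segments give to the CDR3 are shown because they set the third residue of most CDR3s in the family, and the capitals mark that codon.
TRAV13-2, TRAV13D-2 and TRAV13N-2: tgtgctATAgatc
8 names, among them TRAV13D-1, TRAV13N-1, TRAV13N-4 and TRAV13-4/DV7: tgtgctATGgaac
TRAV13-1: tgtgctTTGgaac
The names in the tables went against this annotation for 1 pair. Of the 1539 UMIs named TRAV13D-1, 1117 (72.6%) began as the annotated TRAV13-1 ends and 15 as the annotated TRAV13D-1 does, while 80.0% of the 70 UMIs named TRAV13-1 began with the end annotated for TRAV13D-1. TRAV13D-1 is therefore the name in the tables, and its place in the locus is not certain for these UMIs. Of the 429 UMIs named TRAV13-2, 364 (84.8%) could not be given to a single end, and 58 (13.5%) began as annotated.

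The CDR3 sequences of the 8 commonest TRAV13 clonotypes follow, because they show the joint of each. For each, the commonest nucleotide sequence is given. The capitals are bases between the match to a TRAV13 germline end and the J part as the tables place it. The J part was not compared with a germline sequence, so a lower-case base in it need not be germline.
TRAV13D-1 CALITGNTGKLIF TRAJ37: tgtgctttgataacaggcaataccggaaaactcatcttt
TRAV13N-2 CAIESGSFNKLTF TRAJ4: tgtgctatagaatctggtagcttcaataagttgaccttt
TRAV13N-2 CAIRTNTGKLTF TRAJ27: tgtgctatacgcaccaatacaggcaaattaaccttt
TRAV13N-4 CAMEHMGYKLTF TRAJ9: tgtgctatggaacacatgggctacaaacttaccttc
TRAV13N-2 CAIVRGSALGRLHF TRAJ18: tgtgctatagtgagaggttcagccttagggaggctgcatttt
TRAV13D-1 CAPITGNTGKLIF TRAJ37: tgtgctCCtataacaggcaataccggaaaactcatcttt
TRAV13N-4 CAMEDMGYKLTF TRAJ9: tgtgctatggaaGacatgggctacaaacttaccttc
TRAV13N-2 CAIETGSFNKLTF TRAJ4: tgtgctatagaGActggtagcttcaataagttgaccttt
The commonest sequence had 0 such bases in 5 of the 8 clonotypes and 1 or 2 in the other 3. Of the 8 clonotypes 6 formed 3 pairs: both TRAJ37 clonotypes differed at 1 residue (position 3), both TRAJ4 clonotypes at 1 (position 5) and both TRAJ9 clonotypes at 1 (position 5).

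Library depth ran from 7293 to 24811 in-frame UMIs, of which 207 to 634 were TRAV13. A count of 3 UMIs, the smallest taken as a level, corresponded to between 0.0121% and 0.0411% of a library. A UMI is a molecule and cells can give several, so a lower share can mean fewer cells or fewer mRNAs per cell, and these cannot be told apart. No 2 libraries of a genotype agreed within sampling noise (largest chi-square p over segment counts in 18 pairs, 4.99e-34). The sources give no batch. The smallest p that an exact 2-sided Mann-Whitney test can give for 4 against 4 libraries is 0.0286.

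The TRAV13 family held a small and similar share of the repertoire in the 3 genotypes. In wt mice it was 2.31, 2.77, 3.24 and 2.74% of the in-frame UMIs, in Il2° mice 2.13, 3.25, 3.43 and 2.84%, and in Il15° mice 2.20, 2.46, 2.95 and 2.88%. The groups overlapped throughout. The means were 2.77% ± 0.379 (SD, n = 4), 2.91% ± 0.579 and 2.62% ± 0.354, and exact 2-sided Mann-Whitney tests gave p = 0.486 for Il2° against wt, 0.886 for Il15° against wt and 0.686 for Il15° against Il2°. Of the 12 TRAV families with at least 50 UMIs in every library, 33.3%, 8.33% and 25% had shares that did not overlap in these 3 comparisons, and TRAV13 was among none of them.

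Within the family the names were very uneven. TRAV13D-1 was the largest member with 1539 UMIs, 29.4% of the family, in 234 clonotypes, and TRAV13N-2 followed with 1404 UMIs (26.8%) in 154 clonotypes. TRAV13N-1 had 698 UMIs, TRAV13N-4 447, TRAV13-2 429, TRAV13D-4 218, TRAV13-4/DV7 211, TRAV13D-2 175 and TRAV13-1 70. The 4 other names were rare: TRAV13D-3 had 18 UMIs, TRAV13N-3 16, and TRAV13-3 and TRAV13-5 had 5 each. The rare names and TRAV13-1 held too few UMIs to show any but large differences at this depth.

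**Figure D1:**
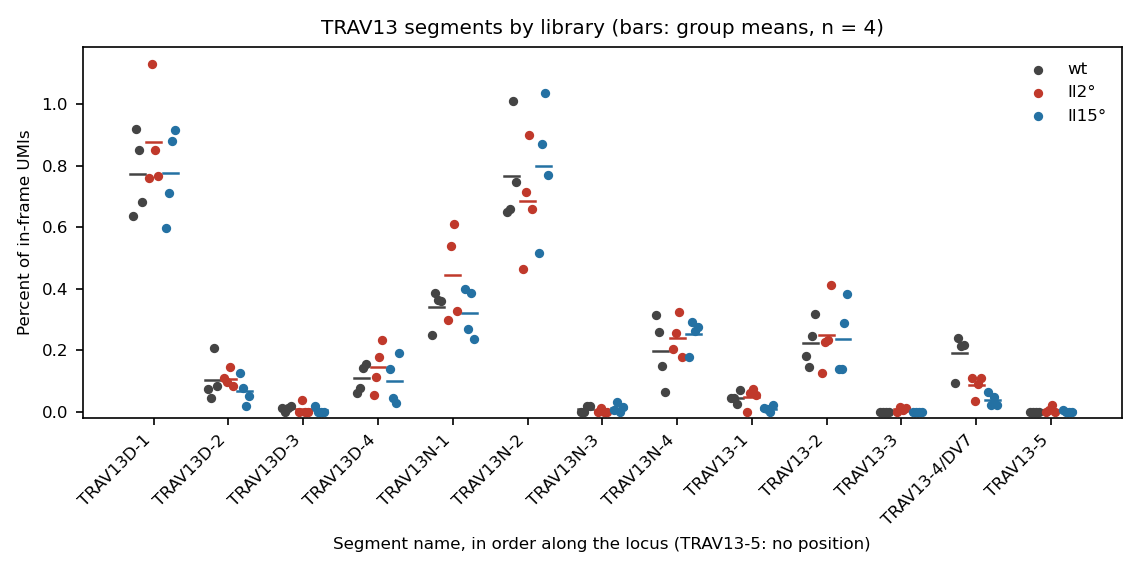
Share of each TRAV13 segment name in each library, as percent of in-frame UMIs, with names in locus order. Points are libraries and bars are means of 4. TRAV13D-1 and TRAV13N-2 are the highest and overlap between genotypes, whereas TRAV13-4/DV7 is highest in the wt libraries and lowest in the Il15° libraries.

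TRAV13D-1 showed no difference between genotypes that passed a test. It made up 0.637, 0.917, 0.849 and 0.683% of the in-frame UMIs of wt mice, 0.761, 1.13, 0.852 and 0.768% in Il2° mice and 0.597, 0.711, 0.880 and 0.915% in Il15° mice. The 3 groups overlapped almost entirely. With edgeR's quasi-likelihood test on the UMI counts, adjusted by Benjamini-Hochberg over the 80 segments that reached 10 UMIs in 4 or more libraries, the log2 fold change was 0.06 ± 0.22 (SE) for Il2° against wt (adjusted p = 0.940) and 0.06 ± 0.22 for Il15° against wt (adjusted p = 0.904). TRAV13N-2 had a log2 fold change of -0.30 ± 0.25 in Il2° (adjusted p = 0.677) and 0.10 ± 0.25 in Il15° (adjusted p = 0.896).

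TRAV13-4/DV7, a segment that can also be used by the delta chain, was lower in Il15° mice. Its 4 wt libraries held 0.0927, 0.240, 0.214 and 0.216% of in-frame UMIs, and the Il15° libraries held 0.0637, 0.0229, 0.0484 and 0.0224%. The highest Il15° library stood below the lowest wt library. In UMIs, these were 23, 55, 33 and 36 in wt and 11, 3, 5 and 4 in Il15°. The log2 fold change was -2.20 ± 0.53 (SE, adjusted p = 0.0315, edgeR), and it was the 1 segment called among the 80 in that comparison (1.25%). Shares did not overlap for 5% of the 80 segments. The filter of 10 UMIs was met by 4 wt, 2 Il2° and 1 Il15° libraries, so the segment would not have been tested without its wt libraries. Its folds, p-values and lack of overlap, also in the clonotype numbers below, are a description.

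In Il2° mice TRAV13-4/DV7 held 0.110, 0.0340, 0.0893 and 0.110%, values that lay between the other genotypes and overlapped with both. The log2 fold change was -1.30 ± 0.49 against wt, which did not pass (adjusted p = 0.169, edgeR), and -0.90 ± 0.57 for Il15° against Il2° (adjusted p = 0.327). The difference of Il15° from wt was past the threshold, in a test that the segment entered only through its wt libraries. That of Il2° was not, and the direct comparison of both mutants did not separate them. Over all segments 1.25% were called in Il2° against wt and 3.75% in Il15° against Il2°, none of them TRAV13.

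The number of TRAV13-4/DV7 clonotypes moved with its share. The wt libraries held 8, 14, 10 and 12 of them, the Il2° libraries 6, 4, 7 and 6, and the Il15° libraries 4, 2, 2 and 2. Neither mutant overlapped with wt. Clonotype numbers did not overlap for 2.5% of the 80 segments in Il2° against wt and for 3.75% in Il15° against wt. Of the 30 TRAV13-4/DV7 clonotypes seen in any wt library, 9 were also seen in an Il2° library and 1 in an Il15° library. The Il2° libraries together held 41 UMIs of the segment in 14 clonotypes, and the Il15° libraries 23 UMIs in 8. The wt libraries together held 147 UMIs. The same sharing was not counted for other segments, so no background is given for it, and it cannot be told apart from the lower UMI counts of the mutants. These libraries differ in depth, and clonotype numbers were not scaled to it.

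**Figure D2:**
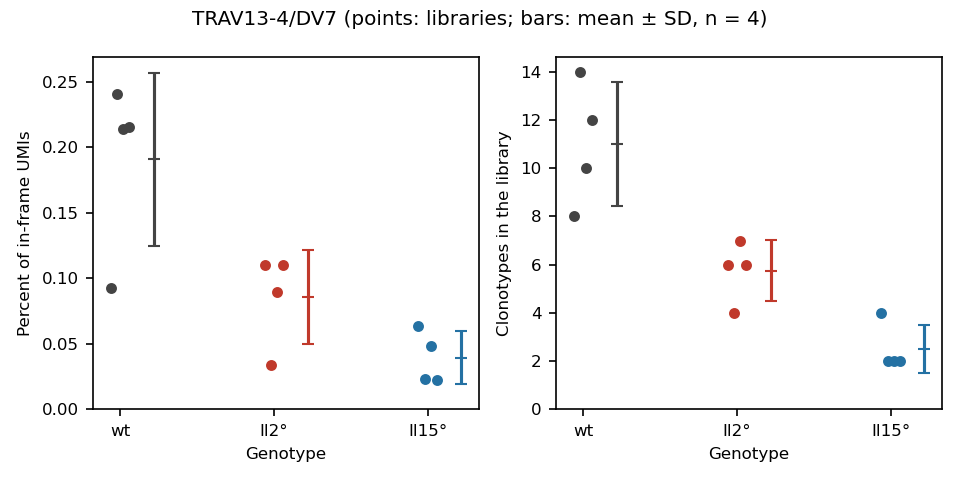
TRAV13-4/DV7 by genotype, as percent of in-frame UMIs (left) and as number of clonotypes per library (right). Points are libraries and bars are mean ± SD of 4. The Il15° libraries, with 2 to 4 clonotypes, lie below all wt libraries, with 8 to 14.

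TRAV13-4/DV7 was joined to other J segments than the rest of the family. TRAJ52 accounted for 63 of its 211 UMIs (29.9%), TRAJ57 for 33 and TRAJ49 for 21. TRAJ52 and TRAJ57 gave 48 and 24 UMIs in wt, 15 and 9 in Il2°, and 0 and 0 in Il15°, where a count of 0 allows up to 3 UMIs over the group. Its 3 commonest TRAJ52 clonotypes differed from each other at CDR3 position 3 alone. Their commonest nucleotide sequences, chosen for display after their values were seen, hold no base between a TRAV13 germline end and the J part as placed. The first matches the ATA end of other TRAV13 names, not the ATG end annotated for TRAV13-4/DV7.
TRAV13-4/DV7 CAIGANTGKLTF TRAJ52: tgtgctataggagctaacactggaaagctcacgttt
TRAV13-4/DV7 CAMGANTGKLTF TRAJ52: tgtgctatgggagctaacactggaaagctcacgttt
TRAV13-4/DV7 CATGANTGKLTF TRAJ52: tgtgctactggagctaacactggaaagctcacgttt
Their counts were 21, 9 and 10 in the wt mice, 3, 9 and 3 in the Il2° mice, and 0 each in the Il15° mice. All 23 TRAV13-4/DV7 UMIs of Il15° mice used TRAJ40 or a higher number, against 28 of 41 in Il2° and 100 of 147 in wt.

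The call for TRAV13-4/DV7 was close to the threshold. It stayed with DESeq2 and without TMM scaling, but the adjusted p rose to between 0.0557 and 0.105 when only the 8 libraries compared were fitted, when the replicate number entered as a block and when no filter was applied. Leaving out single libraries gave log2 fold changes from -2.62 to -1.99 with adjusted p from 0.0143 to 0.161. It was above 0.05 without wt 2 (0.151), wt 3 (0.0977), wt 4 (0.114), Il15° 2 (0.0780) or Il15° 4 (0.161).

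TRAV13-1 was also low in Il15° mice, with 2, 1, 0 and 4 UMIs against 11, 10, 4 and 12 in wt. Its log2 fold change of -1.89 ± 0.87 did not pass (adjusted p = 0.362, edgeR), most of the Il15° counts were at or under the 3 UMI floor, and 0 Il15° libraries met the filter of 10 UMIs. The other 7 tested names had log2 fold changes between -0.45 and 0.37 in Il15° against wt and between -0.30 and 0.27 in Il2° against wt. The median over the 9 tested TRAV13 names was 0.01 in Il2° and 0.02 in Il15°, beside 0.08 and 0.04 over all 80 segments.

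TRAV13 was joined to a set of J segments that differed from that of other V segments. TRAJ9 (9.18%), TRAJ37 (9.14%), TRAJ27 (8.94%), TRAJ4 (8.23%), TRAJ23 (8.17%) and TRAJ18 (7.33%) were the 6 commonest, as mean percent of TRAV13 UMIs over 12 libraries, and together held 51.0% of the family. TRAJ4 had 8.23% of TRAV13 but 2.17% of other in-frame UMIs and TRAJ18 7.33% against 2.62%. Both were higher in TRAV13 in 12 of 12 libraries, as was TRAJ27 (8.94% against 5.20%). TRAJ31 and TRAJ12, common elsewhere at 9.18% and 8.80%, had 3.75% and 3.46% of TRAV13 and were lower in 11 and 12 of 12 libraries. A total of 43 J segments were seen, of which 40 occurred with TRAV13, and 8, counting 3 without any TRAV13 UMI, were not higher in TRAV13 in any library.

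The J segments differed between members in their share of UMIs. TRAV13N-4 was joined to TRAJ9 in 274 of its 447 UMIs (61.3%), TRAV13D-4 to TRAJ9 in 31.2%, TRAV13D-1 to TRAJ37 in 24.1% and to TRAJ21 in 14.0%, and TRAV13N-2 to TRAJ4 in 24.1%, TRAJ27 in 22.6% and TRAJ18 in 12.8%. TRAV13N-1 was more even, with TRAJ17 at 14.8% as its first. Few clonotypes held much of these shares. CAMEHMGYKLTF and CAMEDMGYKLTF had 150 and 88 of the 274 UMIs of TRAV13N-4 with TRAJ9. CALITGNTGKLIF and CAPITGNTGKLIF had 208 and 78 of the 371 UMIs of TRAV13D-1 with TRAJ37. The mean TRAJ number, weighted by UMIs over 12 libraries, was 14.1 for TRAV13N-4, 17.0 for TRAV13N-2, 18.2 for TRAV13D-4, 18.9 for TRAV13-2, 20.7 for TRAV13N-1, 30.3 for TRAV13D-1, 30.8 for TRAV13D-2, 32.1 for TRAV13-1 and 45.7 for TRAV13-4/DV7. TRAV13D-2 and TRAV13N-2, which the annotation gives as identical over 250 bases, stood at 30.8 and 17.0. Counting each clonotype once gave 20.8 for TRAV13N-4, 17.8 for TRAV13N-2, 24.1 for TRAV13D-4, 19.1 for TRAV13-2 and 20.7 for TRAV13N-1. In this count TRAV13D-1 stood at 27.6, TRAV13D-2 at 31.0, TRAV13-1 at 31.2 and TRAV13-4/DV7 at 43.0. Of the 12 members with a position TRAV13-4/DV7 is also the nearest to the J segments, and 71.6% of its UMIs used TRAJ40 or above. For TRAV13N-2 it was 0.142%. Over the members with a position, the mean TRAJ number did not rise steadily along the locus. These are descriptions over shared libraries and were not tested.

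**Figure D3:**
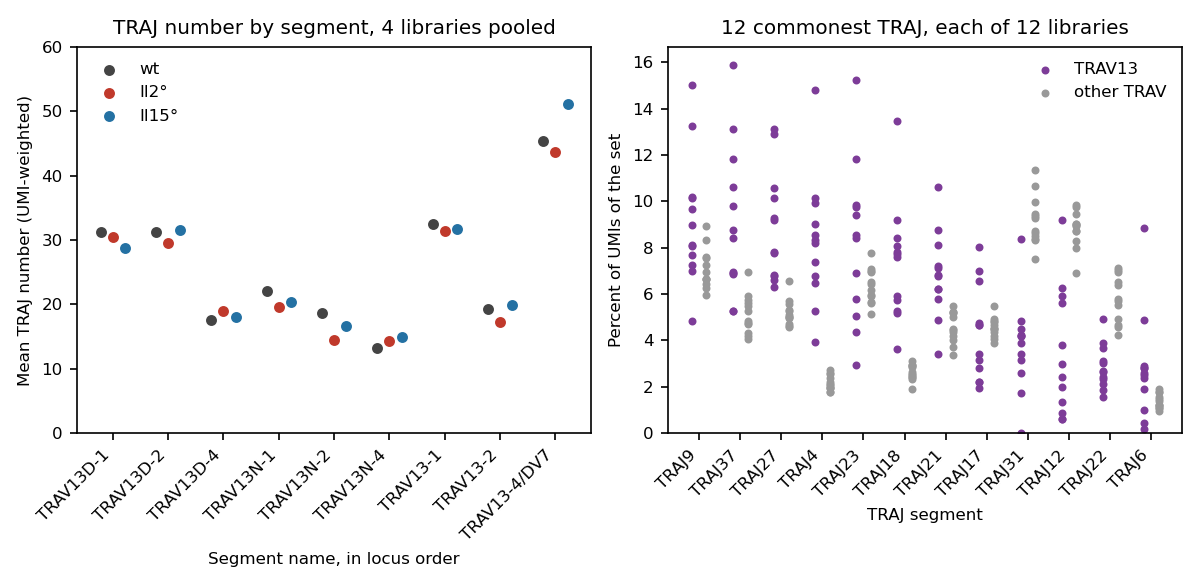
Left, mean TRAJ number of the 9 common TRAV13 names for each genotype, pooled over 4 libraries. Right, percent of TRAV13 UMIs and of other in-frame UMIs with each of the 12 J segments commonest in TRAV13, 1 point per library. TRAV13-4/DV7 lies between 43.6 and 51.1 and the other names between 13.3 and 32.5, and TRAJ4 and TRAJ18 are higher in TRAV13 in all 12 libraries.

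Across genotypes, no TRAV13-TRAJ pair passed the threshold. Of 248 pairs of a V family and a J segment tested, 18 were TRAV13. Over all pairs 1.21%, 0% and 6.45% were called in Il2° against wt, Il15° against wt and Il15° against Il2°, and for TRAV13 the counts were 0, 0 and 0, with 1, 2 and 1 at an unadjusted p under 0.05 (edgeR), and 0, 0 and 1 with DESeq2. TRAJ6 was low in wt at 1.92, 0.158, 1.00 and 0.438% of TRAV13 UMIs, and had 2.58, 2.80, 2.80 and 2.90% in Il2° and 2.37, 2.48, 8.85 and 4.87% in Il15°. Neither mutant overlapped with wt, which held for 7.66% of the 248 pairs in Il2° and 4.44% in Il15°. The log2 fold changes were 1.72 ± 0.75 (adjusted p = 0.281, edgeR) and 2.42 ± 0.74 (adjusted p = 0.168, edgeR). In UMIs, TRAJ6 had 11, 1, 5 and 2 in wt, 7, 16, 14 and 6 in Il2° and 9, 8, 27 and 25 in Il15°. Of the wt libraries only wt 1 met the filter of 10 UMIs, so the pair was tested only through its mutant libraries. Its folds, p-values and lack of overlap are a description.

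TRAJ37 had 15.9, 13.1, 8.40 and 10.6% of TRAV13 UMIs in Il2° mice and 6.84, 5.28, 6.89 and 5.26% in Il15° mice, without overlap, as for 7.26% of the 248 pairs. The wt libraries held 6.97 to 11.8% and overlapped with Il2°. The log2 fold change of Il15° against Il2° was -1.07 ± 0.36 (adjusted p = 0.0657, edgeR). It passed with DESeq2 (adjusted p = 0.0458), with library totals in place of TMM (0.0489) and without Il15° 3 (0.0405), in a range from 0.0405 to 0.202 over the alternatives.

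The CDR3 of TRAV13 clonotypes was slightly longer in both mutants. The mean length per library, weighted by UMIs, was 12.80, 12.91, 12.91 and 12.77 residues in wt, 13.26, 13.10, 12.95 and 12.95 in Il2°, and 12.99, 12.98, 13.07 and 13.06 in Il15°. All mutant libraries were above all wt libraries. The difference from wt was 0.22 residues in Il2° and 0.18 in Il15° (exact 2-sided Mann-Whitney p = 0.0286 for each), and 15 tests of this kind gave an adjusted p of 0.143. The 2 mutants did not separate (difference -0.04, exact p = 1). Among the 12 TRAV families 16.7% did not overlap in length in each of the 3 comparisons, so TRAV13 was 1 of 2 in both comparisons with wt. When each clonotype counted once the differences were 0.15 (exact p = 0.343) and 0.13 (exact p = 0.200). No single length passed a test, and a length of 12 residues had the lowest p in Il2° against wt, at 30.2% ± 5.17 of TRAV13 UMIs in wt and 24.5% ± 2.62 in Il2° (exact p = 0.0571, adjusted over 9 lengths 0.514).

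The mean TRAJ number of the family fell by 2.82 in Il15° mice, from 23.5, 27.1, 24.0 and 24.3 in the wt libraries to 23.1, 21.9, 19.8 and 22.7. The groups did not overlap (exact 2-sided Mann-Whitney p = 0.0286, adjusted over 15 tests 0.143). In Il2° mice it was 24.1, 23.4, 20.9 and 21.7 (difference -2.18, exact p = 0.114). TRAV13 had the largest difference from wt of the 12 families in both mutants. In Il15° TRAV5 (2.16), TRAV16 (-2.12) and TRAV9 (-2.07) came next, each with overlap. TRAV13 was 1 of the 8.33% without overlap in Il15° against wt, while 8.33% in Il2° against wt and 0% in Il15° against Il2° were families other than TRAV13. Without TRAV13-4/DV7, the difference in Il15° was -1.82 (exact p = 0.0571), smaller in size than those of TRAV5, TRAV16 and TRAV9.

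Central CDR3 residues, those outside the first 4 and the last 4, were more often hydrophobic (A, I, L, M, F, V, W or Y) in Il15° mice. They made up 22.6, 19.7, 22.5 and 21.1% in wt, 20.3, 23.2, 22.6 and 23.3% in Il2°, and 25.3, 24.9, 25.1 and 24.4% in Il15°. Every Il15° library was above every other library. The difference was 3.45 percentage points from wt and 2.58 from Il2° (exact 2-sided Mann-Whitney p = 0.0286 each, adjusted over 21 tests of 7 residue classes 0.200). Of the 12 families 16.7% and 33.3% did not overlap in these comparisons. Acidic residues fell from 1.498% ± 0.407 in wt to 0.862% ± 0.144 in Il15° (exact p = 0.0286, adjusted 0.200), a change without overlap in 8.33% of families. These tests were added after the data were seen. Counting each clonotype once left 2.16 points from wt (exact p = 0.0286) and 0.898 from Il2° (exact p = 0.200).

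**Figure D4:**
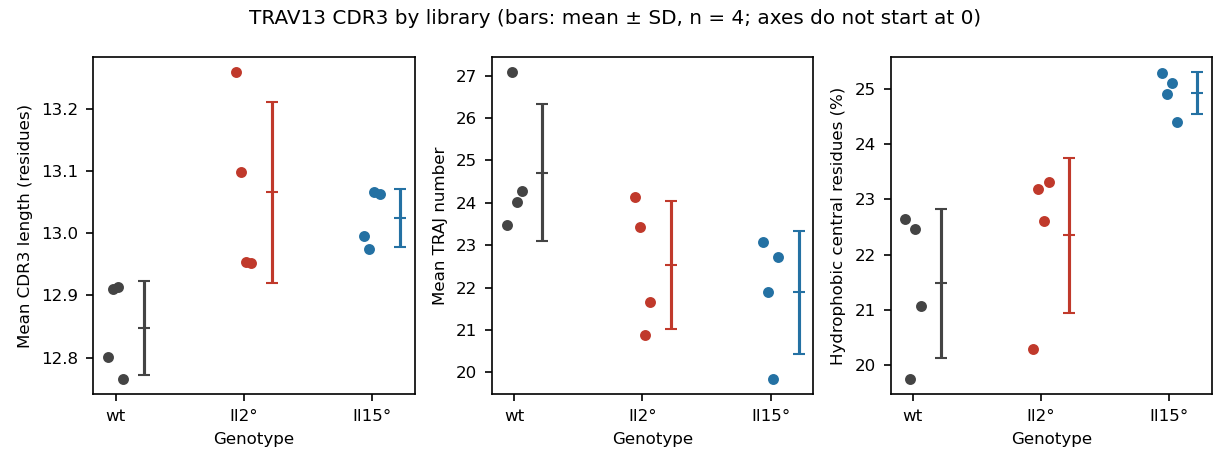
Mean CDR3 length in residues, mean TRAJ number and percent of hydrophobic central residues of TRAV13 clonotypes by genotype, weighted by UMIs. Points are libraries and bars are mean ± SD of 4, on axes that do not start at 0. Both mutants lie above wt in length, and Il15° lies below wt in TRAJ number and above both other groups in hydrophobic residues.

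The third residue of the CDR3 followed the V ends shown at the start. Isoleucine held 33.8% ± 2.77 of TRAV13 UMIs in wt mice, 28.9% ± 2.55 in Il2° mice and 33.6% ± 4.00 in Il15° mice, methionine 24.8% ± 3.95, 26.8% ± 3.68 and 23.6% ± 4.41, and leucine 19.8% ± 2.64, 23.8% ± 5.63 and 21.6% ± 3.33. Glutamate, the next germline residue of the ATGgaac end, was the commonest residue at position 4, at 33.5% ± 6.45 in wt, 33.7% ± 2.88 in Il2° and 32.6% ± 6.89 in Il15°. The groups overlapped at each of these 4 residues.

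Compared with all other in-frame TRAV clonotypes of the same library, TRAV13 had shorter CDR3s and other central charges. Its mean length was 12.98 residues against 13.08, a difference of -0.11 ± 0.13 (SD, n = 12), lower in 11 of 12 libraries (exact sign-flip permutation p = 0.0200, adjusted over 5 tests 0.0334). Against TRAV12 and TRAV14, which also have D and N copies, as other families do, and hold 2537 and 1582 in-frame clonotypes, the difference was -0.30 (exact permutation p = 0.000977). The length difference ran from -0.31 to -0.16 in wt, -0.10 to 0.18 in Il2° and -0.12 to -0.03 in Il15° libraries. Basic central residues were at 7.25% ± 0.988 in TRAV13 and 4.30% ± 0.263 elsewhere, higher in 12 of 12 libraries. Acidic ones were at 1.27% ± 0.460 and 2.98% ± 0.245, lower in 12 of 12. Low length and few acidic residues were not particular to TRAV13. In wt, TRAV4 had a mean length of 12.7, and acidic residues were at 0.374% in TRAV10 and 0.777% in TRAV8. Hydrophobic residues (22.9% and 23.3%, exact permutation p = 0.510) and the mean TRAJ number (23.0 and 23.6, exact permutation p = 0.291) gave no difference that passed. The difference in TRAJ number turned when TRAV13 was set against TRAV12 and TRAV14 alone (1.08, exact permutation p = 0.0298).

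As the tables place the V end, TRAV13 had 3.13 ± 0.291 (SD, n = 12) untemplated bases in the mean and other clonotypes 2.03 ± 0.0595, higher in 12 of 12 libraries (exact permutation p = 0.000488, the smallest that 12 libraries can give). This rested on the V reference. With V ends taken from GENCODE germline ends the difference was 0.11 (exact permutation p = 0.155). Genotypes overlapped (3.05 ± 0.0206 in wt, 3.26 ± 0.374 in Il2° and 3.07 ± 0.365 in Il15°, exact p = 1 for both mutants against wt).

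Of 874 TRAV13 clonotypes 492 (56.3%) were seen in 1 library, beside 52.4% of the other TRAV clonotypes. TRAV13 had 12 clonotypes in 10 or more libraries and 3 in all 12: TRAV13D-1 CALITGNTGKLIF TRAJ37, TRAV13N-2 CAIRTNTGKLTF TRAJ27 and TRAV13N-4 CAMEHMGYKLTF TRAJ9. These 3 held 10.9% of TRAV13 UMIs, and the 8 commonest clonotypes 21.9%. Of the other 19741 clonotypes 171 were seen in all 12 libraries and held 29.5% of their UMIs. Present in all 4 libraries of a genotype were 10 of 381 TRAV13 clonotypes in wt (2.62%), 12 of 436 in Il2° (2.75%) and 10 of 256 in Il15° (3.91%), beside 5.89%, 4.16% and 5.66% of the other clonotypes. Of the 10 in wt, 7 were also shared by all 4 Il2° mice and 4 by all 4 Il15° mice. This overlap was not counted for the other clonotypes, so no background is given for it.

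Drawn to the depth of the library with the fewest TRAV13 UMIs, 207, the libraries held 101, 105, 86.0 and 103 TRAV13 clonotypes in wt, 79.4, 119, 122 and 108 in Il2°, and 91.8, 64.2, 57.9 and 95.6 in Il15°. The Il15° mean of 77.4 ± 19.1 (SD, n = 4) was 21.4 below that of wt, with overlap (exact p = 0.114), and 29.7 below that of Il2° (exact p = 0.114). Il2° and wt differed by 8.25 (exact p = 0.343). At the same depth TRAV13 held 94.4 clonotypes in the mean of 12 libraries, a difference of -56.7 from TRAV12 and TRAV14 together (exact permutation p = 0.000488). A set with more segments starts with more possible clonotypes, and the comparison was not adjusted for that. The choice of sets thus favours a lower number for TRAV13, and the p-value is not read as a trait of the family.

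**Figure D5:**
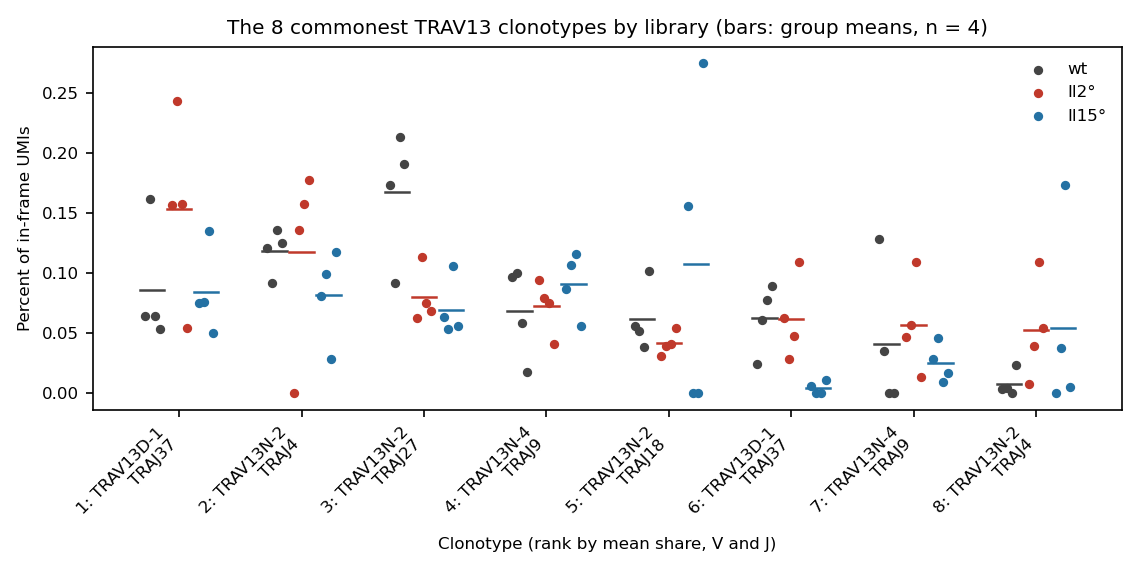
Share of the 8 commonest TRAV13 clonotypes in each library, as percent of in-frame UMIs, labelled by rank, V and J segment. Points are libraries and bars are means of 4. The sixth, TRAV13D-1 with TRAJ37, has at most 0.0112% in Il15° libraries, and the fifth, TRAV13N-2 with TRAJ18, is at 0 in 2 Il15° libraries and highest in the other 2.

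No TRAV13 clonotype was called by edgeR. Clonotypes entered the test when 4 of the 8 libraries compared held 5 or more UMIs of them. By this filter 10 TRAV13 clonotypes of 464 were tested in Il2° against wt, 8 of 478 in Il15° against wt and 10 of 362 in Il15° against Il2°, and over all clonotypes 0%, 0% and 0.276% were called. At an unadjusted p under 0.05 there were 0, 2 and 1 for TRAV13 (edgeR), and DESeq2 called 0, 0 and 0 of them. At this depth large changes in single clonotypes can be missed.

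The lowest p belonged to TRAV13D-1 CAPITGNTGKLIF TRAJ37. It had 6, 14, 12 and 15 UMIs in wt, 8, 5, 7 and 8 in Il2°, and 1, 0, 0 and 2 in Il15°, without overlap between Il15° and the others, as for 5.44% of clonotypes against wt and 8.84% against Il2°. The log2 fold change was -3.56 ± 1.11 against wt (adjusted p = 0.390, edgeR, with a range from 0.121 to 0.904 over the alternatives) and -3.51 ± 1.16 against Il2° (adjusted p = 0.342, edgeR). It passed the filter only through the wt libraries in the first test and the Il2° libraries in the second, so it had to be lower in Il15° to be there, and its folds, p-values and lack of overlap are a description. The 3 UMIs of Il15° are at the floor. Its neighbour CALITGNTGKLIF, 1 residue away, had 13, 10, 14 and 9 UMIs in Il15° and 16, 37, 10 and 9 in wt (log2 fold change -0.15 ± 0.65, adjusted p = 0.982, edgeR). In Il2° it had 20, 43, 23 and 4 (0.87 ± 0.58 on the log2 scale, adjusted p = 0.754, edgeR).

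TRAV13N-2 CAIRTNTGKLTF TRAJ27 was the clonotype with the most UMIs, 212, and the most nucleotide sequences, 11, shown here because the same 12 residues were reached by many joints. Capitals are as above.
48 UMIs: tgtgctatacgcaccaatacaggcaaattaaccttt
47 UMIs: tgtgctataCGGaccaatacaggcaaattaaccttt
46 UMIs: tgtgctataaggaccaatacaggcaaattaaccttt
13 UMIs: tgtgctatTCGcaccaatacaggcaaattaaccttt
11 UMIs: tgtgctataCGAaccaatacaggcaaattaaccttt
11 UMIs: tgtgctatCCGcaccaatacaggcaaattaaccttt
9 UMIs: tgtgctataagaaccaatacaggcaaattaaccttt
8 UMIs: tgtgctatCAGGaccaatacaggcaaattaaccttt
8 UMIs: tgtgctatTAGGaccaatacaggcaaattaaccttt
7 UMIs: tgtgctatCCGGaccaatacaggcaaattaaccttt
4 UMIs: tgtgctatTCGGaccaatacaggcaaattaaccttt
They hold 0 to 4 such bases. Those without capitals read cgc, agg or aga before the shared accaat. The J part as placed can therefore not be germline in all of them. The clonotype had 43, 21, 33 and 32 UMIs in wt (0.0917 to 0.214%), 8, 20, 11 and 5 in Il2° and 11, 7, 11 and 10 in Il15° (0.0535 to 0.106%). Its share in the lowest wt library lay within the range of both mutants. The log2 fold change was -0.97 ± 0.51 in Il2° (adjusted p = 0.567, edgeR) and -1.31 ± 0.54 in Il15° (adjusted p = 0.982, edgeR, unadjusted 0.0292).

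The other common clonotypes overlapped between the genotypes. TRAV13N-2 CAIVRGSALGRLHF TRAJ18, also with 11 nucleotide sequences, had 27, 0, 0 and 49 UMIs in Il15° and 6 to 17 in wt (log2 fold change 0.79 ± 1.02, adjusted p = 0.982, edgeR), and 4 to 7 in Il2° (log2 fold change -0.53 ± 0.70, adjusted p = 0.909, edgeR). TRAV13N-2 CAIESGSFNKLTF TRAJ4 had 21 to 30 UMIs in the wt libraries, 3 to 21 in Il15°, and 0, 24, 23 and 13 in Il2° (log2 fold change against wt -0.59 ± 0.58 in Il15° and 0.07 ± 0.73 in Il2°, adjusted p = 0.982 and 0.983, edgeR). TRAV13N-4 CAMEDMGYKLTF TRAJ9 had 32, 8, 0 and 0 UMIs in wt, 6, 10, 16 and 1 in Il2°, and 5, 6, 1 and 3 in Il15°. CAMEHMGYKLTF, 1 residue away, was found in all 12 libraries with 3 to 24 UMIs, in 2 nucleotide sequences of which the first held 147 of 150 UMIs. TRAV13N-2 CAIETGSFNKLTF TRAJ4 had 1, 1, 0 and 4 UMIs in wt, 1, 7, 16 and 4 in Il2° and 0, 5, 18 and 1 in Il15°, and was not tested against wt.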

How the data were processed

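TCRα repertoires were made by the authors from sorted thymocyte RNA by 5′ template switching with UMIs. The authors filtered reads by quality, built UMI consensus sequences with pRESTO from at least 2 reads, assembled clonotypes with MiXCR and wrote VDJtools tables. The deposited counts are UMIs per clonotype, not normalized, and the deposited fraction is that count over the library total, which was not tested. Per the labels' processing notes the build is mm10, and tool versions are not given in the sources used here. Shares were computed from the counts, mostly over in-frame UMIs.

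Groups of 4 were compared by exact 2-sided Mann-Whitney tests that enumerated all splits. TRAV13 was compared with other TRAV by exact sign-flip permutation over 12 libraries. These exact tests were checked against scipy 1.17.1. Segments, V family-TRAJ pairs and clonotypes were tested over the whole tables with edgeR 4.0.16 (R 4.3.3, TMM, quasi-likelihood, Benjamini-Hochberg, threshold 0.05), with DESeq2 1.42.0, other filters, replicate blocks and omitted libraries as alternatives. Both kinds of test were tested on simulated data. Families entered the background with at least 50 UMIs per library, and 4 UMIs with a J start outside the CDR3 were left out of inserted bases. Named were all TRAV13 segments, the 6 commonest TRAJ, the 8 commonest clonotypes, the 3 of lowest p in each mutant and all past the threshold; TRAJ6 was named after its values were seen. The members and lists were chosen with earlier results of these data known.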

Additional observations from a re-analysis of the deposited data

Results flagged for a closer look

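In 1 group a single library stood apart: among the wt libraries TRAV13D-1 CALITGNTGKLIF TRAJ37 held 0.162% of the in-frame UMIs in wt 2, beside 0.0539 to 0.0648% in the other 3. Its gap to the nearest library was 0.898 of the range of the group, above Dixon's limit for 4 values. It was 1 of 102 groups of 4 examined in this way (0.980%), and chance alone flags about 1 in 20.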

How the results depend on the processing

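Of 364 values recomputed under alternatives for the main comparisons, 303 kept their direction and their side of the threshold. The replicate numbers did not pair the mice: same-numbered libraries of different genotypes correlated from -0.268 to 0.329 in their deviations over 76 segments, over 0.1 in 2 of 12 pairs. With the replicate block, where 4 pairs cannot go below an exact p of 0.125, the CDR3 length differences (0.22 in Il2°, 0.18 in Il15°) and the TRAJ number difference in Il15° (-2.82) had p = 0.125, and the count of TRAV13 segments called in Il15° against wt went from 1 to 0. It was also 0 without a filter, with copies merged (which joins TRAV13-4/DV7 with TRAV13D-4 and TRAV13N-4) and with only the 8 libraries compared. With each clonotype counted once it had to be 0 for TRAV13-4/DV7, which was not among the 6 TRAV13 segments tested there. TRAV13-TRAJ pairs called in Il15° against Il2° rose from 0 to 1 without TMM and with DESeq2.

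With each clonotype counted once, length differences were 0.15 in Il2° and 0.13 in Il15°, and TRAJ number differences were -2.61 (exact p = 0.0286) in Il2°, -1.57 (exact p = 0.0571) in Il15° and 1.04 for Il15° against Il2°. Without TRAV13-4/DV7, an alternative chosen after seeing the data, the TRAJ number difference in Il15° was -1.82. Inserted bases in Il15° against Il2° turned to 0.0056 with each clonotype once and to 0.15 with GENCODE V ends. Acidic residues in Il2° against wt turned to 0.0034 with each clonotype once and 0.0039 without the commonest clonotype. Against TRAV12 and TRAV14 alone the TRAJ number difference turned to 1.08 and the hydrophobic one to 0.55. With each clonotype once these were 0.18 and -1.03 (exact permutation p = 0.00879). Inserted bases against other TRAV fell to 0.11 with GENCODE V ends. The cause was not tested.

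Leaving out 1 library, where an exact test of 3 against 4 cannot go below p = 0.0571, gave ranges of -0.028 to 0.41 for the family share in Il2° and -0.29 to 0.017 in Il15°, 0.15 to 0.26 and 0.15 to 0.20 for length, -0.079 to 0.023 for length in Il15° against Il2°, -3.23 to -2.03 for TRAJ number in Il15° and -1.18 to 0.042 against Il2°, -0.12 to 0.12 for inserted bases in Il15°, -0.85 to -0.27 for TRAJ number against other TRAV, 0 to 1 TRAV13 segments called in Il15° against wt, and 0 to 1 pairs in Il15° against Il2°. For acidic residues in Il2° against wt it gave -0.21 to 0.19, with 0.068, 0.087 and 0.19 without wt 1, wt 3 or Il2° 4. Without TMM the median log2 fold change over 80 segments moved from 0.08 to 0.23 in Il2° against wt and from -0.07 to -0.24 in Il15° against Il2°. Depth limits single clonotypes and the rare names most.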

Other observations

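A set of 64 in-frame TRAV13 UMIs in 34 clonotypes (1.22% of the family) began with tgtggaggg. These bases are at the end of 0 of the TRAV germline segments in GENCODE M21. They occurred under 7 TRAV13 names, among them TRAV13D-4 with 24 of 218 UMIs, TRAV13D-3 with 13 (72.2%), TRAV13N-3 with 9 (56.2%) and TRAV13-3 with 5 (100%). Of all 172 in-frame UMIs with this start, 102 were named TRAV7. What these sequences are was not tested.

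Out-of-frame or stop-containing TRAV13 rows, which no comparison used, held 340 UMIs in all and 8 to 59 per library.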
